A study of Macaca mulatta with 5 samples.

Results

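FLNA encodes filamin A, a large protein that crosslinks actin filaments and ties them to integrins and other receptors at the cell membrane. It is abundant in smooth muscle, endothelium, platelets and many migrating cells, and its relative FLNC is a gene of muscle. Its messenger RNA carries a known recoding site, where A-to-I editing by an ADAR enzyme exchanges a glutamine for an arginine (Q-to-R) near the carboxyl end of the protein.

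The FLNA transcripts were taken as the models inside a 10830 bp interval of chromosome X (152396284 to 152407113, rheMac2) and every other model with the same gene identifier, ENSMMUG00000013668. This gave 6 of the 51763 transcript models in the files, of which 2 lay inside the interval and 4 shared the identifier only. The rule uses position and identifier and no measured value, but FLNA was picked with earlier results of these data known.

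The libraries came from cerebellum, kidney, lung, heart and spleen of male rhesus macaques (Macaca mulatta), and the labels gave no treatment and no age. Each tissue had a single library, made from poly(A)-positive RNA with the strand kept. The study describes cerebellum, kidney, lung and heart as tissues of the same animal, whereas the animal of the spleen library was not stated. All differences below therefore compare libraries and have no replicate check, and the 95% intervals cover the counting of reads only.

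The properly mapped reads ranged from 48306898 in kidney to 81517974 in cerebellum. The reads summed over models, in which shared reads recur, came to between 47.9% of the mapped reads in heart and 91.5% in lung. The upper quartile of RPKM, which scales reads to exon length and to the mapped reads of the library, was taken over models with reads. It was 3.99 in heart and between 7.04 and 9.85 in the other tissues. Of 6 genes listed as labels of each tissue, 5 had an identifier in the files (4 for heart), and each of these was highest in the tissue it marks.

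The FLNA models covered chromosome X from 152380496 to 152407114. The longest, IMMRT11110042749, had 8486 bp of exon and spanned 26618 bp. Models IMMRT10010042747 and IMMRT11000042748 had 8360 and 8139 bp of exon and ended within a few bases of the longest at the high-coordinate end. IMMRT10010042750, with 3901 bp of exon, was the model that spans the interval itself. The remaining models were short, with 1140 bp (IMMRT10011042745, 152393120 to 152395719) and 1028 bp (IMMRT10011042746, 152402444 to 152404217). The files gave neither strand nor exon boundaries, and reads of overlapping models recur in each of them.

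The known recoding position lay 3045 bp inside the high-coordinate end of the gene and 23573 bp from the low-coordinate end. It fell within the span of 5 of the 6 models, and no transcript of another gene covered it. In the 1028 bp model it was 148 bp from the edge, and the 1140 bp model ended 8350 bp before it. As the site lies near the carboxyl end of the protein, the high-coordinate end is the end of the gene that is transcribed last. The 3901 bp model covers this side of the gene. The share of edited reads was not analysed here.

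FLNA was highest in lung and lowest in cerebellum in all 6 models. The 3901 bp model had the highest RPKM summed over tissues and was used as the level of the gene. In lung, 34767 reads gave 114.6 RPKM (113.4 to 115.8). In spleen it had 52.9 RPKM (52.1 to 53.8, 13859 reads) and in kidney 20.5 RPKM (19.9 to 21.2, 3864 reads). Heart and cerebellum were lower. Heart had 12.9 RPKM (12.5 to 13.3, 3185 reads) and cerebellum 6.89 RPKM (6.61 to 7.18, 2191 reads). No interval overlapped that of another tissue, but the intervals cover counting only, and the order of kidney and heart changed with the scaling. In bulk tissue, fewer cells that express FLNA and less FLNA RNA per cell cannot be told apart.

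**Figure D1:**
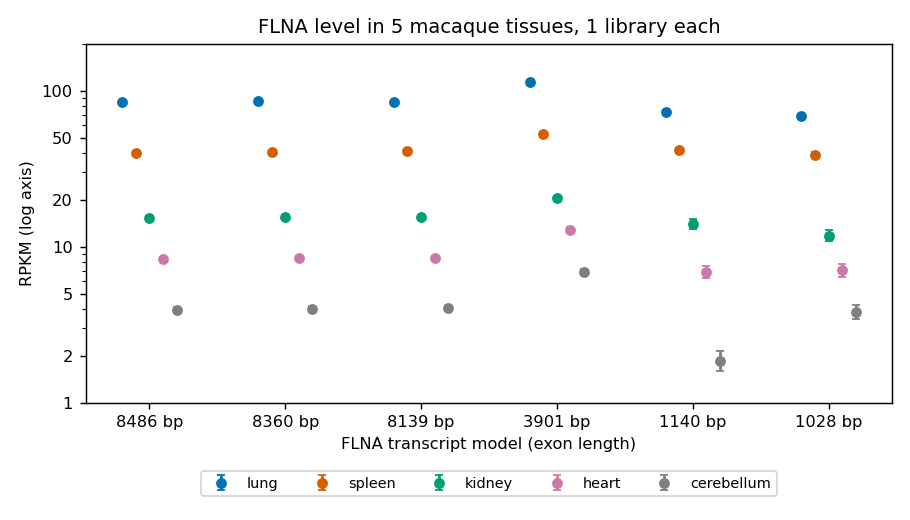
RPKM on a log axis (vertical) of the 6 FLNA models, named by exon length (horizontal), in 5 tissues with 1 library each; points are deposited values and bars 95% Wilson intervals of the read counts. Lung sits highest and cerebellum lowest in every model, from 114.6 against 6.89 RPKM in the 3901 bp model to 73.3 against 1.84 RPKM in the 1140 bp model.

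The lung level was 16.6 times that of cerebellum (15.9 to 17.4), 8.89 times that of heart (8.57 to 9.22), 5.59 times that of kidney (5.40 to 5.78) and 2.16 times that of spleen (2.12 to 2.21). Among the 15688 genes with at least 1 RPKM in a tissue, each read from its model with the highest summed RPKM, 21.6% were highest in lung, as FLNA was, against 34.2% in spleen, 20.1% in cerebellum, 18.7% in kidney and 5.4% in heart. With median-of-ratios scaling the share highest in lung was 13.7%. At least 2-fold higher in lung, after adding 1 RPKM, were 29.3% of these genes against cerebellum, 49.8% against heart, 20.9% against kidney and 12.7% against spleen, and FLNA was among them each time. A level at least 2-fold higher in lung than in each other tissue was found for 5.48% of these genes, FLNA among them. The full order of lung, spleen, kidney, heart and cerebellum was that of 404 genes (2.58%).

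Within each library, FLNA ranked 250 of 28633 gene identifiers in lung, 656 in spleen, 1709 in heart, 2077 in kidney and 5085 in cerebellum. Heart thus stood above kidney by rank, although its RPKM was lower. The kidney level was 1.59 times that of heart (1.52 to 1.67) on the deposited scale. After scaling each library by its upper quartile the order turned, with 19.2 in kidney and 24.4 in heart, and with median-of-ratios size factors the values were 17.1 and 24.9. As TPM, kidney stayed above heart at 55.7 and 50.3. Over 20 combinations of 4 scalings and 5 ways to read the gene, heart was above kidney in 9, while lung was first and cerebellum last in all 20. With these scalings the lung to heart ratio fell as far as 2.97.

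The difference of lung and another tissue was set beside that of all 15688 genes on the log2(RPKM + 1) scale, which understates the change of low genes. Lung minus cerebellum was 3.87 for FLNA, against a median of 0.37 over all genes, and 97.5% of genes had a smaller difference. For heart the difference was 3.06 against a median of 0.996, and for kidney 2.43 against 0.23. For spleen it was 1.10 against a median of -0.07, and 1792 genes had a larger lung excess over spleen.

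The 3 long models repeated the order of tissues, with read numbers close to each other (55831, 55684 and 53909 in lung). The 8486 bp model had 84.6 RPKM in lung, 40.1 in spleen, 15.3 in kidney, 8.36 in heart and 3.95 in cerebellum. The 8360 bp model had 85.6 RPKM in lung and 40.6 in spleen, and the 8139 bp model 85.2 and 40.9. The 3901 bp model was above each of them in every tissue.

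The short models were read separately, since their spans do not overlap. The 1028 bp model at the recoding position had 69.5 RPKM in lung (67.7 to 71.3) and 39.0 in spleen (37.5 to 40.5). It had 11.8 RPKM in kidney, 7.05 in heart and 3.82 in cerebellum (3.42 to 4.26). The 1140 bp model farther from that position had 73.3 RPKM in lung (71.5 to 75.1) and 41.5 in spleen (40.0 to 42.9). Its 14.0 RPKM in kidney and 6.87 in heart were also near the values of the 1028 bp model. In cerebellum it had 1.84 RPKM (1.58 to 2.14, 171 reads), below the value of the 1028 bp model.

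**Figure D2:**
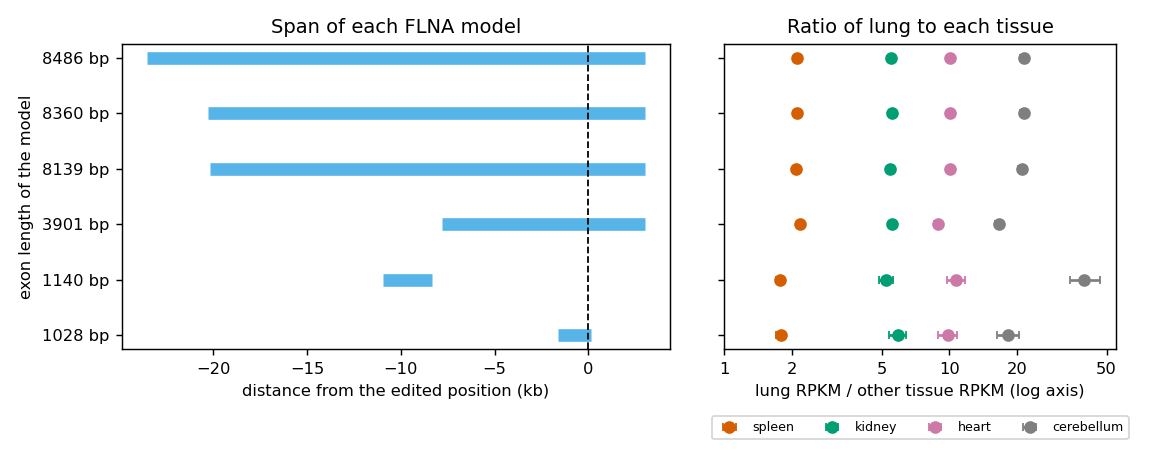
Left, the span of each FLNA model as distance from the edited position in kb (dashed line at 0), ordered by exon length. Right, on a log axis, the lung RPKM divided by that of each other tissue for the same model, with 95% exact counting intervals. The 1140 bp model, which lies to the left of the edited position, has a lung to cerebellum ratio of 39.8, whereas the other models lie between 16.6 and 21.4.

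The ratio of the 1140 bp to the 1028 bp model was 0.482 in cerebellum (exact 95% interval 0.398 to 0.582). In the other 4 libraries it was 0.974 in heart (0.857 to 1.11), 1.06 in lung (1.02 to 1.09), 1.06 in spleen (1.01 to 1.12) and 1.19 in kidney (1.07 to 1.33). The cerebellum interval did not overlap those of the other tissues. The lung to cerebellum ratio was 39.8 (34.2 to 46.6) from the 1140 bp model and 18.2 (16.3 to 20.4) from the 1028 bp model. The choice of model changed the ratio to kidney far less, from 5.23 to 5.90 over these models.

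The longer models also differed most in cerebellum, and here heart stood apart as well, unlike with the short models. The 3901 bp model had 1.75 times the RPKM of the 8486 bp model in cerebellum and 1.54 times in heart, against 1.35 in lung, 1.34 in kidney and 1.32 in spleen. If every exon base of the 3901 bp model is also part of the longest model, which the files cannot show, the remaining 4585 bp held 538 reads in cerebellum and 21064 in lung. These correspond to 1.44 and 59.1 RPKM, a ratio of 41.0, and the same remainder gave 4.51 RPKM in heart, 10.8 in kidney and 29.2 in spleen. The read count of the 3901 bp model was 80.3% of that of the longest model in cerebellum, against 60.6% in spleen.

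The same ratio was computed for 584 genes whose main model has at most 60% of the exon length of the longest and whose longest model reached 1 RPKM in each tissue. The median ratio was 1.35 in cerebellum and 1.38 in lung. The main models were taken wherever they lie in a gene, so this median cannot show a bias toward either end of genes. The difference of cerebellum and lung was 0.37 on the log2 scale for FLNA and -0.03 at the median, and 9.76% of the 584 genes had a difference as large as that of FLNA. For heart, FLNA differed from lung by 0.19 against a median of 0.05, and 23.8% of genes had as large a difference. The cause of the lower cerebellum values farther from the high-coordinate end was not tested.

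**Figure D3:**
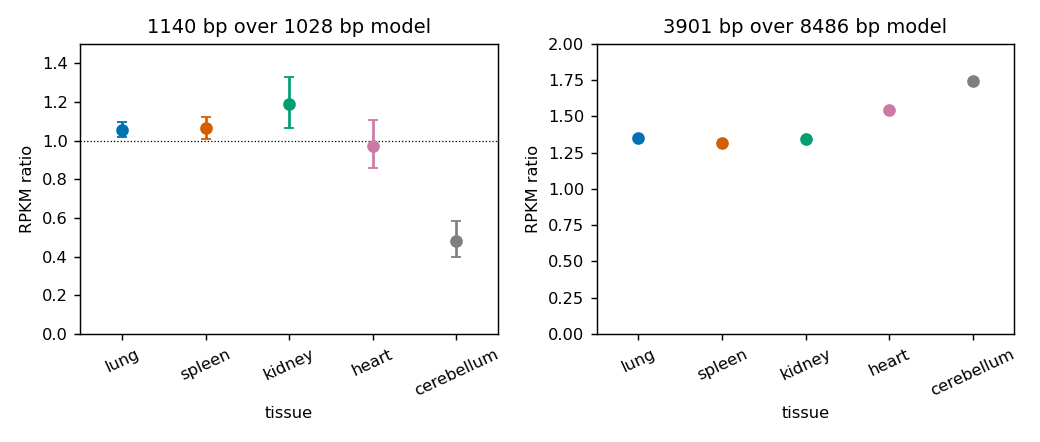
Ratio of RPKM between FLNA models within each tissue (1 library each); left, the 1140 bp over the 1028 bp model with 95% exact counting intervals and a dotted line at equal level; right, the 3901 bp over the 8486 bp model, whose spans overlap and which have no interval. Cerebellum stands apart on the left at 0.482, and on the right it is highest at 1.75, followed by heart at 1.54.

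The depth at the recoding position sets how precisely editing can be measured there. The 1028 bp model held 5555 reads in lung, 2688 in spleen, 585 in kidney, 459 in heart and 320 in cerebellum. Per kilobase of exon, this was 5404 reads in lung and 311 in cerebellum, with 2615 in spleen, 569 in kidney and 446 in heart. Reads were thus available at this model in every tissue, but with unequal depth. They spread over the whole model, so fewer cover the edited base itself, and the depth at that base was not measured here. The floor of 3 reads corresponds to between 0.036 and 0.060 RPKM for this model, well below the level in each tissue.

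ADAR, which encodes the editing enzyme ADAR1, and ADARB1, which encodes ADAR2, were described beside FLNA as the enzymes of A-to-I editing. ADARB1 had 21.4 RPKM in cerebellum, where FLNA was lowest, and 13.2 in lung, where FLNA was highest. It had 2.66 RPKM in spleen (869 reads), 1.71 in kidney and 0.61 in heart. ADAR was highest in spleen at 43.9 RPKM, followed by lung at 31.8, and lowest in heart at 5.69. ADARB2, a family member without known catalytic activity, did not exceed 0.75 RPKM and had no reads in spleen, which with a floor of 3 reads is below detection at this depth.

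FLNC (ENSMMUG00000006296, chromosome 3, 166159852 to 166189075), the filamin of striated muscle, had another tissue order than FLNA. It had 90.0 RPKM in heart (89.3 to 90.8, 51215 reads). It had 4.14 RPKM in lung and at most 0.50 in spleen, kidney and cerebellum, so heart and lung were the only tissues above 1 RPKM. Because RPKM is scaled per exon length, both genes were also compared within each tissue. In heart FLNC was above FLNA, at 90.0 against 12.9 RPKM, and in the other 4 tissues FLNA was higher, with 114.6 against 4.14 RPKM in lung. Read from the longest model of each gene, the values were 89.1 against 8.36 RPKM in heart and 4.25 against 84.6 in lung for FLNC and FLNA, so these orders were kept.

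**Figure D4:**
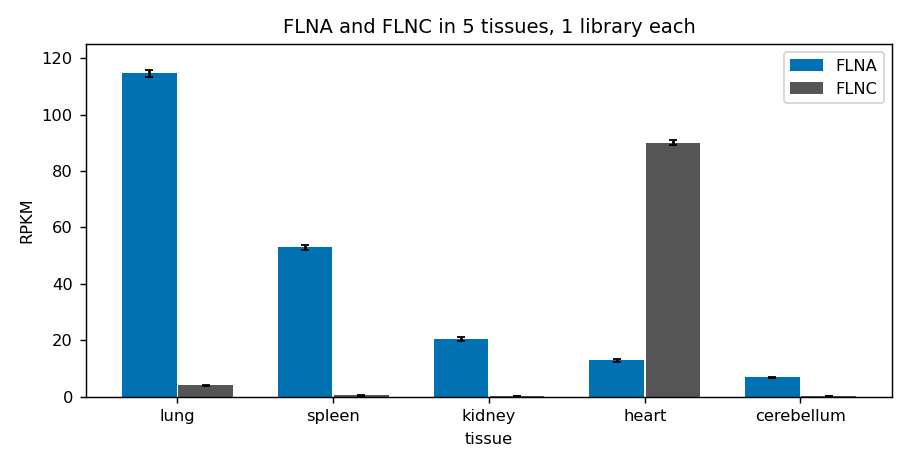
RPKM (vertical, from 0) of FLNA and FLNC in 5 tissues with 1 library each, from the model of each gene with the highest summed RPKM; bars carry 95% Wilson intervals of the read counts. FLNC is higher than FLNA in heart, at 90.0 against 12.9 RPKM, and lower in the other tissues.

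Marker lists of cell types that express filamin A were read beside it. Of 9 endothelial genes with an identifier, 8 were highest in lung, where 21.6% of all detected genes were, and all 9 were at least 2-fold higher in lung than in cerebellum, where 29.3% of all detected genes were. PECAM1, an adhesion molecule of endothelial cells, had 161.5 RPKM in lung, 53.0 in spleen, 20.2 in kidney, 14.4 in heart and 1.92 in cerebellum. ERG, an endothelial transcription factor, had 28.9 RPKM in lung, 22.3 in spleen, 4.18 in heart, 4.06 in kidney and 1.12 in cerebellum. VWF, the von Willebrand factor, had 51.6 RPKM in lung and a higher level in heart (13.1) than in spleen (3.55). The summed RPKM of the list was 486.7 in lung, 196 in spleen, 67.6 in kidney, 65.9 in heart and 9.62 in cerebellum. The full tissue order of FLNA, found for 2.58% of all detected genes, was that of 2 of the 9 genes, PECAM1 and TEK. TEK was nearly level between lung (30.1 RPKM) and spleen (30.0). In the lists described below, 2 of 7 leukocyte, 1 of 10 smooth muscle and 0 of 5 fibroblast genes had the FLNA order. So did 3 of 21 filamin partners and 2 of 20 actin cytoskeleton genes, so this order was not particular to endothelial genes. The order of heart and kidney differed among the 9 endothelial genes, as between PECAM1 and ERG, and it was not compared with that of all genes.

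Of 10 smooth muscle genes, 7 were highest in lung and 3 in heart, and all 10 were at least 2-fold higher in lung than in cerebellum. Over all detected genes these shares were 21.6% for lung, 5.4% for heart and 29.3% for the 2-fold difference. MYH11, the smooth muscle myosin heavy chain, had 49.4 RPKM in lung, 10.7 in spleen, 5.32 in heart, 3.41 in kidney and 0.78 in cerebellum. ACTA2, the smooth muscle actin, had 153.3 RPKM in lung, 59.4 in spleen, 53.5 in kidney, 25.4 in heart and 4.13 in cerebellum. DES, which encodes desmin and is shared with heart muscle, had 1037 RPKM in heart and 60.5 in lung. The summed RPKM of this list was 1214 in heart, largely from DES, and 656.5 in lung, 215.9 in spleen, 192.7 in kidney and 22.6 in cerebellum.

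Fibroblast and leukocyte genes were high in lung and spleen alike. Of 5 fibroblast genes, 2 were highest in lung (1 with upper-quartile and 0 with median-of-ratios scaling) and 3 in spleen. Their summed RPKM was 365.5 in lung, 326.1 in spleen, 161.5 in heart, 48.1 in kidney and 16.1 in cerebellum. DCN alone had 274.5 RPKM in lung and 180.8 in spleen. Of 7 leukocyte genes, 5 were highest in spleen, and the median of lung minus spleen was -2.25 on the log2(RPKM + 1) scale, opposite in sign to that of FLNA. PTPRC, the common leukocyte antigen CD45, had 147.7 RPKM in spleen and 30.3 in lung. LYZ and CD14 went the other way, with 344.7 and 62.7 RPKM in lung against 176.1 and 29.4 in spleen. Over all detected genes, 34.2% were highest in spleen and 21.6% in lung. The leukocyte sum was 818.5 RPKM in spleen and 502.4 in lung, far above kidney (22.8), heart (13.9) and cerebellum (5.51). In lung this sum came largely from LYZ. Genes of platelets and megakaryocytes were low, with at most 2.12 RPKM for the 4 genes with an identifier. The part of any of these cell types in the FLNA levels was not tested.

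**Figure D5:**
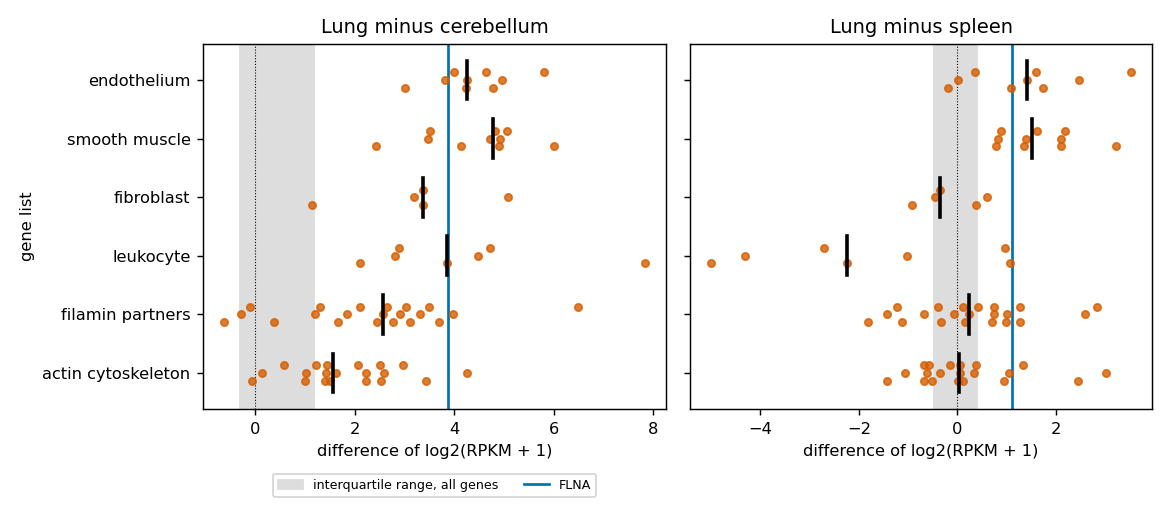
Difference of log2(RPKM + 1) between lung and cerebellum (left) and between lung and spleen (right) for the genes of 6 lists; points are genes, black marks list medians, the grey band the interquartile range of all detected genes and the blue line FLNA (1 library per tissue). The FLNA difference is 3.87 on the left and 1.10 on the right. List medians on the left are 4.26 (endothelium), 4.78 (smooth muscle), 3.36 (fibroblast), 3.85 (leukocyte), 2.57 (filamin partners) and 1.56 (actin cytoskeleton). In the same order they are 1.41, 1.51, -0.35, -2.25, 0.24 and 0.03 on the right.

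The genes whose products bind filamin A or act with it at adhesions were less uniform. Of 21 with an identifier, 10 were highest in lung, 6 in spleen, 2 each in heart and cerebellum and 1 in kidney. The shares over all detected genes were 21.6% in lung, 34.2% in spleen, 5.4% in heart, 20.1% in cerebellum and 18.7% in kidney, so the spleen count was not above the background. At least 2-fold higher levels in lung than in cerebellum were seen for 17 of them, against 29.3% of all genes, and than in spleen for 5, against 12.7%. The count highest in lung fell to 7 after upper-quartile scaling and to 2 with median-of-ratios scaling, so it depended on the scaling.

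TLN1, which encodes talin, a competitor of filamin for integrin tails, was about level between spleen (69.2 RPKM) and lung (66.0), with 28.4 in kidney, 11.8 in heart and 6.72 in cerebellum. ITGB1, the integrin beta chain of most adhesive cells, had 49.1 RPKM in lung, 41.3 in spleen, 23.9 in kidney, 22.4 in heart and 2.19 in cerebellum. CAV1, which encodes the caveola protein caveolin, showed a wider range than FLNA, with 252.6 RPKM in lung, 47.9 in heart, 40.9 in spleen, 3.44 in kidney and 1.82 in cerebellum. ARHGAP24, the filamin-binding Rac regulator FilGAP, was highest in kidney at 46.1 RPKM and had 11.1 in lung. ASB2, a ubiquitin ligase subunit that targets filamins for degradation, was highest in heart at 25.9 RPKM and had 1.40 in lung. PXN, which encodes the adhesion adaptor paxillin, had 39.4 RPKM in cerebellum, against 32.2 in lung.

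Of 20 further genes of the actin cytoskeleton, 9 were highest in spleen, 5 in heart, 4 in lung and 2 in kidney. Over all detected genes 34.2% were highest in spleen, 5.4% in heart, 21.6% in lung and 18.7% in kidney, so the lung count was near the background. MYH9, a nonmuscle myosin heavy chain, had 100.5 RPKM in lung, 96.8 in spleen, 48.8 in kidney, 12.3 in heart and 4.29 in cerebellum, the tissue order of FLNA. TMSB4X, the actin monomer binder thymosin beta, was higher in spleen than in lung, at 1386 against 909.2 RPKM. CFL1, the actin-severing cofilin, had 234.1 RPKM in cerebellum and 224.1 in lung. The median of lung minus cerebellum was 1.56 for this list and 2.57 for the filamin partners, against 0.37 over all detected genes and 3.87 for FLNA. Symbols were attached by identifier, and the model listed under ACTB, at 1.22 to 6.92 RPKM, was low for a gene that every cell uses. The model listed under MYL12B, 1 of the 5 highest in heart, had 735.9 RPKM there and at most 55.6 elsewhere, and its symbol is also uncertain.

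The genes next to FLNA on chromosome X were read beside it. Within 100 kb there were 14 other gene identifiers, of which 10 reached 1 RPKM, with 4 highest in cerebellum, 4 in spleen and 2 in lung, against 20.1%, 34.2% and 21.6% of all detected genes. With 10 genes, nothing particular to the neighbours is read from these counts. EMD, which encodes the nuclear envelope protein emerin and lies 6061 bp from FLNA, had 26.2 RPKM in lung, 16.9 in spleen, 15.5 in cerebellum, 14.6 in kidney and 11.5 in heart. On the other side RPL10, a ribosomal protein gene 11046 bp away, ranged from 175.0 RPKM in heart to 537.7 in spleen. The lung to cerebellum ratio of the 10 neighbours had a median of 1.45 and reached at most 7.41, against 16.6 for FLNA. A further identifier inside the FLNA span, with 1 model near the low-coordinate end, had 0 to 10 reads in each library.

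The genes with the most similar pattern were sought among 7921 genes that reach 10 RPKM in a tissue, as the root mean square difference of centred log2(RPKM + 1) values over the 5 tissues. The nearest was SLC11A1, a metal transporter of macrophages, at 0.11, with 24.9 RPKM in lung, 9.07 in spleen, 3.12 in kidney, 1.54 in heart and 0.66 in cerebellum. ALPK1, an innate immune kinase, was at 0.18, the row listed under mml-mir-126 at 0.20 and MYOF, which encodes the membrane repair protein myoferlin, at 0.20. In cerebellum ALPK1 had 0.12 RPKM, MYOF 0.13 RPKM and the mml-mir-126 row 0 reads, so these distances depend on the added 1 RPKM. ISLR and UTRN, the latter encoding the dystrophin relative utrophin, were each at 0.22. PTPRB, an endothelial receptor phosphatase, was at 0.24 with 32.3 RPKM in lung, 17.5 in spleen, 4.65 in kidney, 4.28 in heart and 2.22 in cerebellum. MFNG, which encodes the Notch-modifying enzyme manic fringe, was at 0.25, and the remaining 2 of the 10 nearest genes had no symbol.

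The median distance over the 7921 genes was 1.33, and FLNC ranked 7506 at 2.84. With a pseudocount of 0.1 RPKM in place of 1, 3 of the 10 nearest genes were kept. Among the list genes, ERG at 0.34, CD14 at 0.38, EGFL7 at 0.42 and TLN1 at 0.44 were nearest to FLNA.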

How the data were processed

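Strand-specific poly(A)-positive RNA-Seq libraries of 5 macaque tissues, 1 each, were analysed. The deposited files list 51763 models of revised macaque transcripts on rheMac2. Per the file headers the authors gave the read number (counts, not normalized) and the RPKM, which scales reads to exon length and properly mapped reads, and exon length as a further deposited value. RPKM recomputed from the counts, the exon length and the mapped reads in the header differed by at most 4.77e-12. TopHat 1.2.0 is named in the submitters' processing notes, and the counting tool and its use of strand are not given in the sources used here. Starts were written 1-based, since the spleen file writes them 1 higher than the other files. Symbols were attached by Ensembl identifier, and 15556 of 28633 identifiers matched. Of 124 list entries, 18 had no identifier.

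With 1 library per tissue no test was made. Wilson intervals (95%) give the error of reads among properly mapped reads, and exact (Clopper-Pearson) intervals that of ratios of reads. Both cover counting error only, and the floor was 3 reads. A gene was read from its model with the highest summed RPKM, detected at 1 RPKM, and compared at 2-fold after adding 1 RPKM. The named genes were the FLNA models, filamin genes, gene lists, genes within 100 kb and the 10 nearest patterns, of which some are not reported here. The members and lists were chosen with earlier results of these data known. The alternatives were other models, scalings, thresholds and pseudocounts. Intervals and the pattern search were tested on simulated data. No reference sequence was used. Python (3.11.15) was used, with intervals from scipy (1.17.1), tables handled in pandas (2.3.3) and numpy (2.4.6), and plots drawn in matplotlib (3.10.9).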

Additional observations from a re-analysis of the deposited data

How the results depend on the processing

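The lung to cerebellum ratio of FLNA was 21.4 from the longest model, 20.9 from the sum of models, 13.1 with upper-quartile scaling, 11.1 with median-of-ratios scaling and 12.5 as TPM. The lung to kidney ratio was 5.07, 4.32 and 5.27 with these scalings, and both longest model and sum stayed within the counting interval. The lung to heart ratio was 10.1 from the longest model, 9.84 from the sum, 3.98 with upper-quartile scaling, 2.97 with median-of-ratios scaling and 5.83 as TPM. The lung to spleen ratio was 2.11 and 2.01 from the longest model and the sum, and 2.39, 2.21 and 2.27 with the scalings. Chosen after seeing the data, the short models of 1140 and 1028 bp gave 39.8 and 18.2 for cerebellum and 5.23 and 5.90 for kidney. For heart they gave 10.7 and 9.85, and for spleen 1.77 and 1.78. Lung was above each tissue in all of these settings. The share of genes highest in lung was 13.7% with median-of-ratios scaling and between 18.9% and 22.8% in the other settings. The causes of these shifts were not tested. No paired analysis was possible because each tissue has 1 library. Depth limits FLNA least in lung and most in cerebellum, where the 1140 bp model rests on 171 reads.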
